A study of Mus musculus with 10 samples.

Results

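The non-fibrillar interstitial collagens described here are 10 genes of the 49568 in the deposited expression table. These were chosen by name, though with earlier results of these data known. The set holds the 3 collagen VI chains Col6a1, Col6a2 and Col6a3, the network collagen Col8a1 and the fibril-associated collagens Col12a1, Col14a1 and Col16a1. It also holds the epithelial border collagens Col7a1, Col17a1 and Col18a1. The study profiled messenger RNA of 10 mouse lines labelled as pancreatic tumour cells, grown in culture, with 1 library per line. The lines A1693, A1809, A1925, A2441 and A3992 are labelled KPCAf/f, and A1081, A1620, A1625, A2031 and A2032 are labelled KPC (n = 5 lines per genotype). KPC commonly stands for a genetically engineered mouse in which pancreatic tumours arise. Neither the alleles nor the Cre driver are listed in the labels. The added A is not spelled out either; the series is about ARID1A, a subunit of SWI/SNF chromatin remodellers, so KPCAf/f is taken to carry floxed (conditionally deletable) Arid1a. KPCAf/f lines therefore share with KPC lines whatever alleles KPC stands for. The labels do not say whether each line came from its own mouse or is a clone, so p-values measure the spread between these lines.

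Collagens are extracellular proteins built from 3 chains wound into a triple helix. Those that do not form thick fibrils have other shapes and places. Collagen VI assembles from 1 chain of each of 3 kinds into beaded microfibrils that link cells to the interstitial matrix. In the mouse the chains encoded by Col6a4, Col6a5 and Col6a6 can take the place of the Col6a3 chain. Collagens XII, XIV and XVI (Col12a1, Col14a1, Col16a1) belong to the fibril-associated collagens with interrupted triple helices, which decorate the surface of fibrils or microfibrils. Collagen VIII (Col8a1) forms sheet-like networks and is well known from the vessel wall and the cornea. Collagen VII (Col7a1) forms the anchoring fibrils that tie a basement membrane to the stroma, collagen XVII (Col17a1) is a transmembrane component of hemidesmosomes, and collagen XVIII (Col18a1) is a basement membrane proteoglycan whose end fragment is endostatin. In pancreatic tumours the interstitial collagens are known mainly as products of stromal fibroblasts.

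Values are counts normalized for library size, in which 1 read is worth about 1 unit (0.818 to 1.32 over the libraries). Reads assigned to genes ranged from 15124888 to 20419830 per library. Arid1a itself had 1253 to 1785 normalized counts in the KPCAf/f lines and 820 to 3109 in the KPC lines (limma adjusted p = 0.563). The low KPC value was that of A1620 alone, and the other 4 KPC lines, at 1914 or more, lay above every KPCAf/f line. A count over the whole gene also takes in exons that a conditional deletion leaves in place, and so does not check the genotype. KPC line A1620 stood apart, with lower levels of long transcripts. Set against the average line, its log2 level changed by -0.654 for each doubling in transcript length, where the slopes were 0.096 to 0.15 in the KPCAf/f lines and -0.021 to 0.039 in the other KPC lines. The longest annotated transcripts of Col12a1, Col6a3 and Col7a1 have 11511, 10106 and 9250 bases and those of the other 7 genes 4100 to 6457, so that values without A1620 or with a length correction are given below where they matter. E-cadherin (Cdh1) and the pancreatic factor Pdx1 were at 10.8 and 2.70 normalized counts in KPCAf/f line A1693, against at least 3143 and 594 in each of the other 9 lines, so that A1693 lacked these defining markers of pancreatic epithelium. The 4 Y-linked genes Ddx3y, Eif2s3y, Kdm5d and Uty had 0 to 3 reads together in each KPCAf/f line and 1148 to 3415 in each KPC line. Genotype and presence of Y-linked transcripts therefore cannot be told apart in any comparison.

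The promoters of the collagen VI chains and of Col8a1 are shown because the 3 chains form 1 protein yet had very different levels, and because Col8a1 lay among the genes that rose. The windows run from 250 bases before to 50 after a transcription start in RefSeq (GRCm38.p6) and are written 5′ to 3′ on the strand of the gene. They lie at chr10:76725995-76726294 (minus strand) for Col6a1, chr10:76623355-76623654 (minus strand, 1 of 2 starts) for Col6a2, chr1:90843922-90844221 (minus strand) for Col6a3 and chr16:57754688-57754987 (minus strand) for Col8a1. Capitals mark matches on either strand to 7 motifs, namely the TATA box TATAAA, the CCAAT box, the GC box GGGCGG, the AP-1 motif TGANTCA, the E-box CACCTG of the Snai and Zeb kind, the Smad motif CAGACA and the TEAD motif CATTCC.
Col6a1: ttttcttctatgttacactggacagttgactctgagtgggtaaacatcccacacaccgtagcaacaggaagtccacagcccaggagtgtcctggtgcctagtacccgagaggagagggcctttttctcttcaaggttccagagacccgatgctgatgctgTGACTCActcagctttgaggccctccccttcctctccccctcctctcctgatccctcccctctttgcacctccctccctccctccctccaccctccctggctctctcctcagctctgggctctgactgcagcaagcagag
Col6a2: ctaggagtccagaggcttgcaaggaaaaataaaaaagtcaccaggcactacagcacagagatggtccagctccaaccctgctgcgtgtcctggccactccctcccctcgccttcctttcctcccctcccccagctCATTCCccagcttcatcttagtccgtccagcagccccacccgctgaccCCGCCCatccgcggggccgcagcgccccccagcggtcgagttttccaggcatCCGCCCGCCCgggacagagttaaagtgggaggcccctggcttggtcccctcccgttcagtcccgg
Col6a3: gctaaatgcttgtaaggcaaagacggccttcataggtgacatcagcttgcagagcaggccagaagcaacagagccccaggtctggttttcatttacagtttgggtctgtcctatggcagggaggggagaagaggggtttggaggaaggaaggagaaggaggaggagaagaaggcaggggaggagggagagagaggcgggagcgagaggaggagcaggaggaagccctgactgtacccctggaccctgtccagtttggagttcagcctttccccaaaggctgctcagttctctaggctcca
Col8a1: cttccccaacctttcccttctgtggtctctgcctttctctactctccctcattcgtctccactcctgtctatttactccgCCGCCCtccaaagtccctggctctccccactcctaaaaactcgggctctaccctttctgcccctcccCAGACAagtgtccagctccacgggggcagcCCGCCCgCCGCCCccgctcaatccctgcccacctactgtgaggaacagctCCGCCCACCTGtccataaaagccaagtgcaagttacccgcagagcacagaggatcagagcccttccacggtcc

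The 3 collagen VI windows held different motifs. Col6a1 had a single AP-1 match, 90 bases before the start, a motif present in 7.81% of the 32851 windows of the table. Col6a2 had 3 GC boxes, of which 2 overlap in the run CCGCCCGCCC, and 1 TEAD motif, which are found in 35.7% and 14.7% of all windows. Col6a3 had none of the 7 motifs in its window. Col8a1 had 4 GC boxes, 1 Smad motif (21.04% of all windows) and 1 E-box (20.2%), with the E-box overlapping the last GC box by 1 base. Over the 8 of the 10 genes that matched the table, 5 held a GC box in at least 1 window, 4 a CCAAT motif, 3 a Smad motif, 2 an E-box, 2 a TEAD motif, 1 an AP-1 motif and 1 a TATAAA motif. CCAAT and TATAAA were present in 37.4% and 13.6% of all windows. Col12a1 and Col14a1 were not matched. A match is a description of these letters and not a site.

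Among the 10 genes, Col12a1, Col6a3 and Col8a1 rose in the KPCAf/f lines, and for these the lines of the genotypes did not overlap. Col16a1 was also higher on average but did not pass the test, and Col6a1, Col6a2, Col7a1 and Col18a1 did not pass it either. Col14a1 and Col17a1 had too few reads to be tested. The test was limma on log2(normalized count + 1), two-sided, adjusted with the Benjamini-Hochberg method over the 13089 genes with at least 10 normalized counts in at least 5 of the 10 lines, and a gene is called where the adjusted p is under 0.05. Of the 8 genes tested 3 were called higher and 0 lower (4 had an unadjusted p under 0.05, as did 14.6% of all tested genes), where 1.36% of all tested genes were called higher and 0.39% lower (1.75% in either direction). Lines of the genotypes did not overlap for these 3 genes, as for 2.84% of all tested genes with KPCAf/f higher, and for 0 of the 8 with KPCAf/f lower, as for 1.69% of all. The median log2 difference of the 8 was 1.97, against -0.01 over all tested genes. Col6a3 stayed under 10 normalized counts in every KPC line and could be tested only because every KPCAf/f line exceeded 10, so that it had to differ. Col12a1 likewise had only 1 KPC line at 10 or more and passed the filter mainly through the KPCAf/f lines. The count and median therefore partly reflect the filter. In these bulk libraries more expressing cells and more RNA per expressing cell cannot be told apart.

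**Figure D1:**
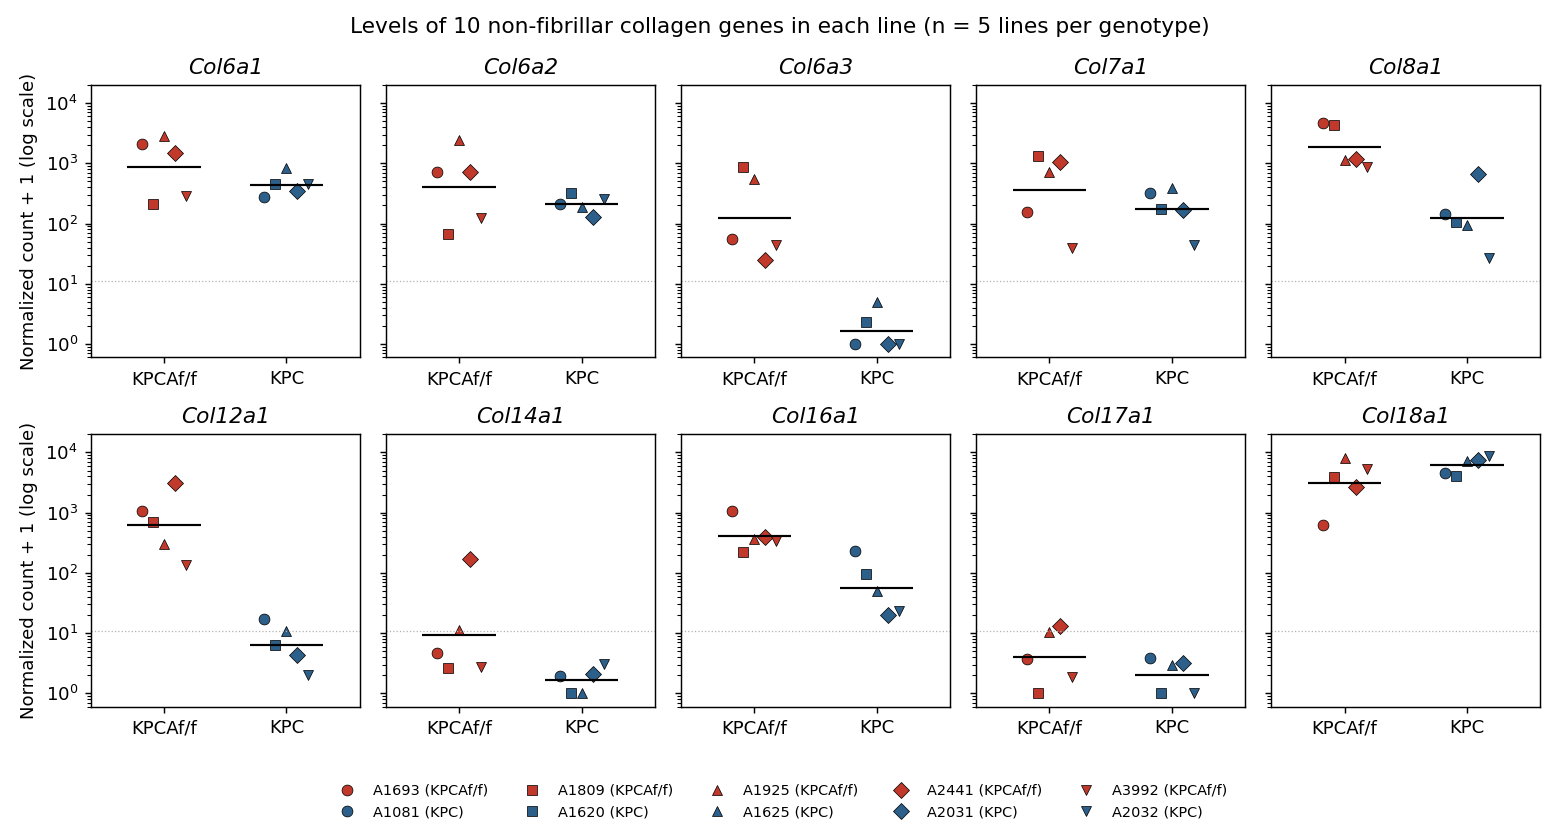
Normalized count + 1 (log axis) of each of the 10 collagen genes in each line, with KPCAf/f lines in red and KPC lines in blue, 1 symbol per line, and a bar at the mean of the log2 values of each genotype; the dotted line marks 10 normalized counts. The KPCAf/f lines lie above all KPC lines for Col6a3, Col8a1 and Col12a1, whereas the genotypes overlap for the other 7 genes.

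Col12a1, a fibril-associated collagen that bridges collagen I fibrils and their surroundings, had normalized counts of 1045, 696.5, 306, 3134 and 136 in KPCAf/f lines A1693, A1809, A1925, A2441 and A3992, against 16.1, 5.30, 9.78, 3.35 and 1.03 in the KPC lines A1081, A1620, A1625, A2031 and A2032. The lowest KPCAf/f line, A3992, was above the highest KPC line, A1081, and the 5 KPC libraries together held 35 reads of the gene. It averaged 1063 ± 1210 in KPCAf/f and 7.11 ± 5.96 in KPC (SD, n = 5 each), and 546 ± 407 in KPCAf/f without A2441 (n = 4) and 4.87 ± 3.71 in KPC without A1081 (n = 4). The log2 fold change was 6.62 (SE 0.84, 95% interval 4.78 to 8.47, limma adjusted p = 0.00202). With any 1 line left out it stayed between 6.04 and 7.17 with adjusted p of at most 0.00866. With the length correction it was 6.25 (adjusted p = 0.00405). The call was lost with limma-voom on the recovered reads (log2 fold change 6.73, adjusted p = 0.0918). Col12a1 spans 79598991 to 79718831 of chromosome 9, minus strand (GRCm38, as for all gene positions here).

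Col16a1, a second fibril-associated collagen, which joins microfibrils, was highest in A1693. The KPCAf/f lines A1693, A1809, A1925, A2441 and A3992 had 1047, 219, 365, 388 and 334 normalized counts, against 226, 95.4, 48.9, 19.0 and 22.7 in the KPC lines A1081, A1620, A1625, A2031 and A2032. Only A1081 overlapped the KPCAf/f range, by a small margin over A1809. The means were 471 ± 329 in KPCAf/f (327 ± 74.8 without A1693, n = 4) and 82.4 ± 86.0 in KPC (46.5 ± 35.2 without A1081, n = 4), and the log2 difference of 2.88 (SE 0.67, 95% interval 1.39 to 4.36) did not pass the threshold (limma adjusted p = 0.0615). It passed without A1081 (log2 difference 3.38, adjusted p = 0.0187), with array weights (3.18, adjusted p = 0.0172) and with DESeq2 (adjusted p = 0.00716). Col16a1 spans 130047840 to 130099283 of chromosome 4, plus strand.

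Col14a1, the third fibril-associated collagen, was detected well in 1 line. It had 171 normalized counts in KPCAf/f line A2441, which also had the highest Col12a1, and 3.60, 1.64, 10.1 and 1.76 in A1693, A1809, A1925 and A3992, against 0 to 2.06 in the KPC lines. Of the 172 reads over the KPCAf/f libraries, 152 came from A2441, and the KPC libraries held 4 reads. The gene did not reach the filter, and with no filter its log2 difference of 2.46 had a limma adjusted p of 0.366. It spans 55307750 to 55520803 of chromosome 15, plus strand.

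Col8a1, the alpha 1 chain of the network collagen VIII, was the most abundant of the 10 messages per kilobase in KPCAf/f lines A1693 and A1809. Normalized counts were 4694, 4282, 1131, 1194 and 854 in KPCAf/f lines A1693, A1809, A1925, A2441 and A3992, against 146, 106, 92.9, 674 and 25.8 in the KPC lines A1081, A1620, A1625, A2031 and A2032. A2031 stood above the other KPC lines and came near A3992 without reaching it. The means were 2431 ± 1888 in KPCAf/f and 209 ± 264 in KPC (92.6 ± 49.9 without A2031, n = 4), and the log2 fold change was 3.95 (SE 0.79, 95% interval 2.21 to 5.68, limma adjusted p = 0.0305). The call was close to the threshold. It was kept without A3992 and without A2031 and lost when any 1 of the other 8 lines was left out (adjusted p 0.0519 to 0.0756, log2 fold change 3.40 to 4.13), with edgeR (adjusted p = 0.0793), with limma-voom (0.0597) and without A1620 and A1693 together (0.121). Its partner chain Col8a2 was at 9.86 ± 4.64 normalized counts in KPCAf/f and 4.33 ± 6.59 in KPC (adjusted p = 0.397). Col8a1 spans 57624258 to 57754737 of chromosome 16, minus strand.

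**Figure D2:**
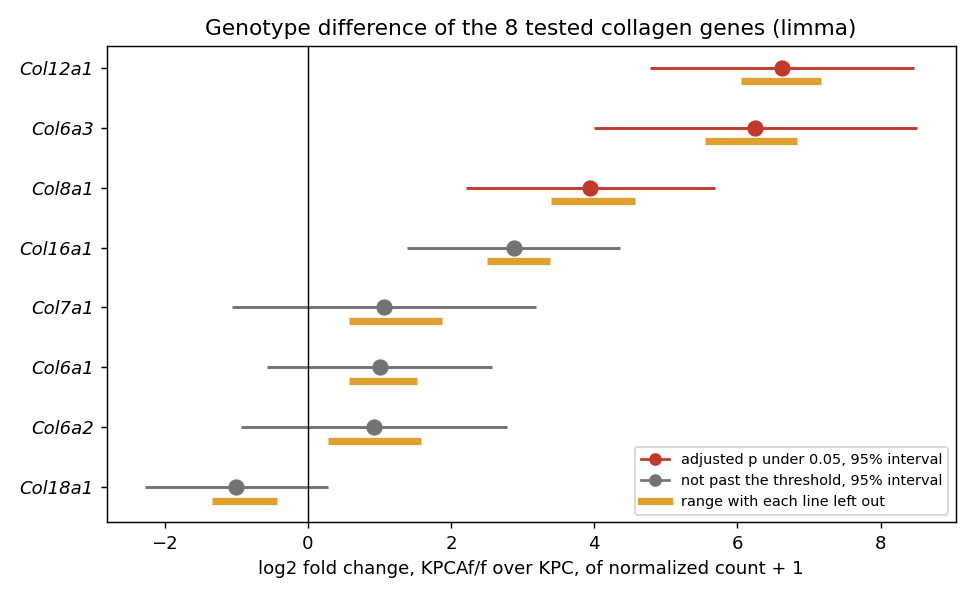
Log2 fold change (KPCAf/f over KPC) of normalized count + 1 for the 8 tested genes, as a point with its 95% interval from limma (red, adjusted p under 0.05; grey, not past the threshold), with a yellow bar for the range of values when each of the 10 lines was left out. Col12a1, Col6a3 and Col8a1 are past the threshold, and the yellow bars of all 8 genes stay on the side of 0 of their point.

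Of the collagen VI chains, only Col6a3 passed the test. Col6a3, which carries the long chain with most of the von Willebrand factor A domains, rose and had almost no reads in the KPC lines, whereas Col6a1 and Col6a2 were expressed in every line of both genotypes and did not pass the test. Normalized counts of Col6a3 were 54.9, 859, 557, 23.6 and 43.2 in KPCAf/f lines A1693, A1809, A1925, A2441 and A3992, against 0, 1.32, 3.91, 0 and 0 in the KPC lines A1081, A1620, A1625, A2031 and A2032. Lines A1809 and A1925 were far above the other 3 KPCAf/f lines, and all 5 lay above all KPC lines, which held 5 reads in all, 4 of them in A1625. The means were 308 ± 381 in KPCAf/f (170 ± 259 without A1809, n = 4) and 1.05 ± 1.70 in KPC (0.331 ± 0.662 without A1625, n = 4), and the log2 fold change was 6.25 (SE 1.03, 95% interval 3.99 to 8.51, limma adjusted p = 0.00975). It stayed called with any 1 line left out (adjusted p up to 0.0316) and with the length correction (0.0188), and lost the call with a pseudocount of 10 (log2 fold change 3.69, adjusted p = 0.0530), with limma-voom (0.0942) and when only genes with a mean of at least 100 were tested (0.0676).

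Normalized counts of Col6a1 were 2116, 208, 2869, 1484 and 285 in KPCAf/f lines A1693, A1809, A1925, A2441 and A3992, against 275, 450, 840, 346 and 452 in the KPC lines A1081, A1620, A1625, A2031 and A2032. Col6a2 had 708, 65.5, 2428, 726 and 122 in the same KPCAf/f lines, against 207, 315, 188, 127 and 255 in the KPC lines. For both chains A1693, A1925 and A2441 lay above every KPC line, and A1809, the line with the most Col6a3, lay below every KPC line. The log2 differences were 1.01 for Col6a1 (95% interval -0.56 to 2.57, limma adjusted p = 0.531) and 0.93 for Col6a2 (95% interval -0.93 to 2.78, adjusted p = 0.621), so that an increase of several-fold lies within both intervals. With any 1 line left out the log2 difference ran from 0.58 (without A1925) to 1.52 (without A1809) for Col6a1 and from 0.28 (without A1925) to 1.57 (without A1809) for Col6a2, past the threshold in none.

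Levels of different genes were compared per kilobase of the longest annotated transcript. Col6a3 stood at 1.67 times the level of Col6a1 in KPCAf/f line A1809 and at 0.0107, 0.0789, 0.00672 and 0.0628 times in A1693, A1925, A2441 and A3992, against 0.000896 to 0.00237 times in the KPC lines, where the ratio uses normalized counts + 1 and is set by the added 1 in lines without reads. On the log2 scale the ratio averaged -4.14 ± 3.13 in KPCAf/f and -9.38 ± 0.58 in KPC (SD, n = 5 each), a difference of 5.24 (two-sided exact permutation p = 0.00794, the smallest that 252 splits can give, and 0.0119 after Benjamini-Hochberg adjustment over 3 ratios). The ratio of Col6a3 to Col6a2 differed by 5.32 (exact permutation p = 0.00794, adjusted p = 0.0119) and that of Col6a2 to Col6a1 by -0.08 (exact permutation p = 0.857). Both p-values for Col6a3 rest on its lack of overlap between genotypes, which the filter favours, and on KPC lines of which 3 had 0 reads, and so add no evidence beyond the counts. With a pseudocount of 10 the first 2 differences were 2.70 and 2.76 and did not pass (adjusted p = 0.107 for both, exact permutation tests). With the length correction they were 4.99 and 5.12. Per kilobase Col6a2 was between 0.266 and 0.706 times Col6a1 in the KPCAf/f lines and between 0.187 and 0.629 times in the KPC lines. The alternative chains Col6a4, Col6a5 and Col6a6 reached at most 3.60 normalized counts in any KPCAf/f line and at most 7.95 in any KPC line.

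**Figure D3:**
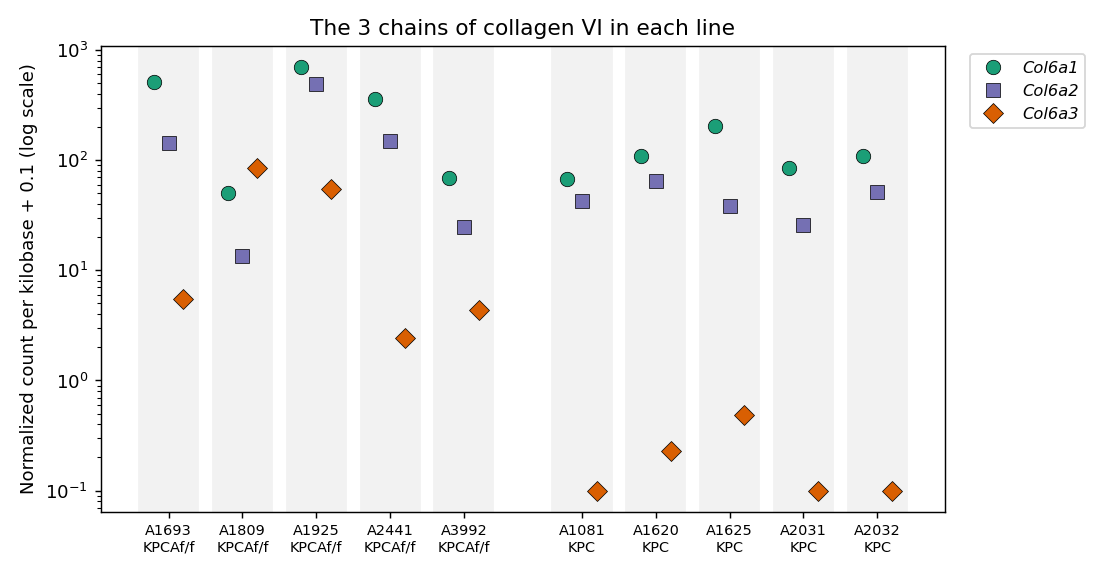
Normalized count per kilobase + 0.1 (log axis) of Col6a1, Col6a2 and Col6a3 in each line, with the 5 KPCAf/f lines on the left and the 5 KPC lines on the right, 1 symbol per chain. Col6a3 is above Col6a1 in A1809 alone, and in the KPC lines it lies far below the other chains.

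Col6a1 and Col6a2 tracked each other across the lines. Both lie on chromosome 10 on the minus strand, Col6a2 at 76595762 to 76623630 and Col6a1 at 76708792 to 76726168, with 85161 bases between them, and Col6a3 spans 90765923 to 90843971 of chromosome 1, minus strand. Their log2 values had a Pearson r of 0.92 and a Spearman rho of 0.84 over the 10 lines (permutation p = 0.00024 and 0.00387; 0.0024 and 0.0387 adjusted over the 10 pairs of the 5 tested genes whose genotypes overlap). Without A1693 and A1925, the lines farthest from the median of Col6a1, r was 0.83, and after each genotype's mean was subtracted it was 0.91. None of the other 9 pairs passed by either measure (lowest adjusted permutation p = 0.0671, for Pearson r of Col16a1 with Col18a1, -0.71). Col18a1, 326009 bases from Col6a1 on the same strand, had an r of -0.36 with it (permutation p = 0.333).

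Per kilobase, collagen XVIII was the main message of the set in every KPC line and also in KPCAf/f lines A1925, A2441 and A3992. Normalized counts of Col18a1 were 624, 3868, 7926, 2655 and 5330 in KPCAf/f lines A1693, A1809, A1925, A2441 and A3992, against 4551, 4071, 7245, 7348 and 8733 in the KPC lines A1081, A1620, A1625, A2031 and A2032. A1693, the line without E-cadherin, was lowest, and 2 KPCAf/f lines lay within the KPC range. The log2 difference was -0.998 (95% interval -2.27 to 0.28, limma adjusted p = 0.447) and -0.42 without A1693. Col18a1 spans 77052178 to 77166548 of chromosome 10, minus strand, with 2 RefSeq start windows, and counts per gene do not separate its isoforms.

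Col7a1, the anchoring fibril collagen, varied 35.5-fold among the KPCAf/f lines. Its normalized counts were 156, 1345, 729, 1058 and 37.9 in KPCAf/f lines A1693, A1809, A1925, A2441 and A3992, against 316, 174, 383, 169 and 43.3 in the KPC lines A1081, A1620, A1625, A2031 and A2032. A1809, A1925 and A2441 lay above all KPC lines, A3992 lay below them, and the log2 difference of 1.06 (95% interval -1.06 to 3.19) did not pass (limma adjusted p = 0.620). It ran from 0.57 (without A2032) to 1.87 (without A3992) with any 1 line left out. With the length correction it was 0.74 (limma adjusted p = 0.752). Col17a1, the hemidesmosomal collagen, had 26 reads over the KPCAf/f libraries and 7 over the KPC libraries and reached 10 normalized counts only in A2441 (12.4). With no filter its log2 difference was 0.94 (95% interval -0.68 to 2.56, limma adjusted p = 0.666). Col7a1 spans 108953586 to 108984875 of chromosome 9, plus strand, and Col17a1 spans 47646344 to 47692094 of chromosome 19, minus strand.

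Per kilobase, Col18a1 made up a smaller share of the 10 messages in every KPCAf/f line than in any KPC line, a description with no test. Its share was 5.56%, 35.9%, 46.2%, 27.7% and 73.4% of the summed level in the KPCAf/f lines A1693, A1809, A1925, A2441 and A3992, and between 75.8% and 89.8% in the KPC lines. The ranges did not overlap, with A3992 just under the KPC range. Col8a1 made up 45.8% in A1693 and 43.5% in A1809, and between 7.22% and 13.7% in A1925, A2441 and A3992, against 0.290% to 8.36% in the KPC lines. Col6a1 and Col6a2 together took the next place in A1925, with 22.8% and 16.1%, and Col12a1 reached 15.9% in A2441. The summed level itself was 1299 to 3066 normalized counts per kilobase in KPCAf/f (median 1927) and 960 to 1737 in KPC (median 1578). In the KPCAf/f lines the order of mean levels per kilobase was Col18a1, Col8a1, Col6a1, Col6a2, Col12a1, Col16a1, Col7a1, Col6a3, Col14a1 and Col17a1, and the ranges of every pair of neighbours in it overlapped. In the KPC lines the order was Col18a1, Col6a1, Col6a2, Col8a1, Col7a1, Col16a1, Col12a1, Col17a1, Col14a1 and Col6a3, where Col18a1 stood apart from Col6a1, Col6a1 from Col6a2 and Col16a1 from Col12a1, and the other neighbours overlapped. The standard deviation of the log2 values was larger among the KPCAf/f lines for 8 of the 10 genes, the exceptions being Col8a1 and Col16a1.

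**Figure D4:**
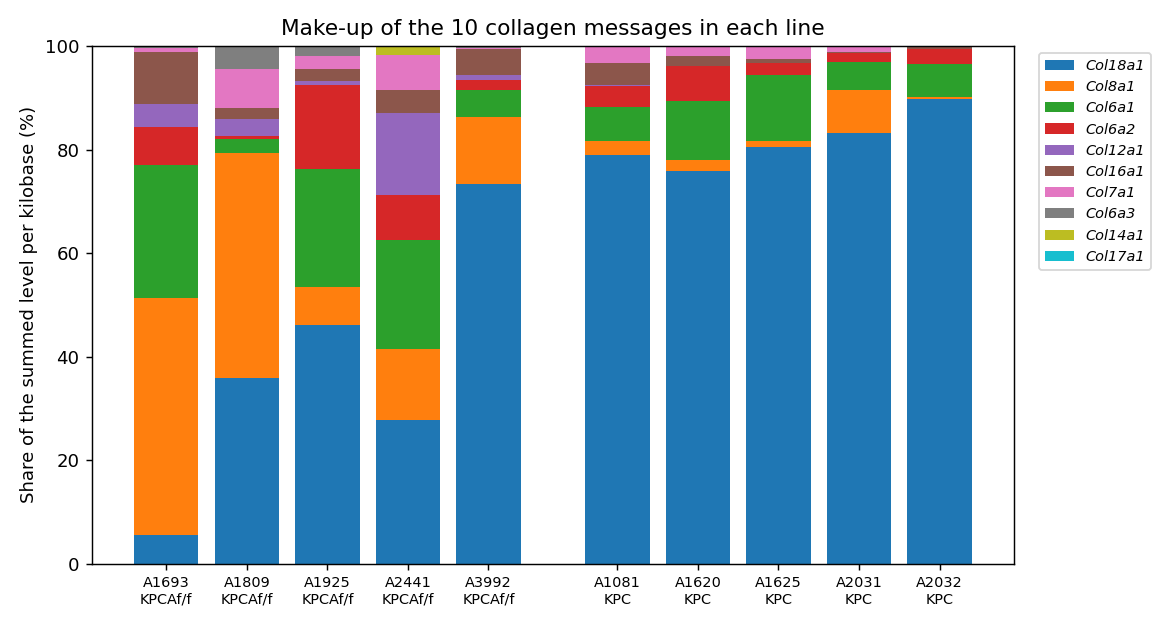
Share (%) of each gene in the summed normalized count per kilobase of the 10 collagen genes, with 1 stacked bar per line, KPCAf/f lines on the left and KPC lines on the right. Col18a1 makes up at least 75.8% in every KPC line and between 5.56% and 73.4% in the KPCAf/f lines.

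Other collagen genes and their partners were counted from lists drawn up by function. Of 23 other non-fibrillar collagens in the table, 7 were tested and 0 passed limma (0 by edgeR, 3 higher by DESeq2, 0 by limma-voom, 2 with an unadjusted p under 0.05; median log2 difference 1.44). The smallest p-values were those of Col4a5, at 1345 ± 734 normalized counts in KPCAf/f and 287 ± 203 in KPC (limma adjusted p = 0.109), and Col4a6, at 210 ± 221 in KPCAf/f and 8.35 ± 6.64 in KPC (adjusted p = 0.274). The basement membrane chains Col4a1 and Col4a2 had log2 differences of -0.36 and -0.35 (adjusted p = 0.696 and 0.695). Among fibrillar collagens 6 of 9 tested genes rose and 0 fell (median 6.78), namely Col1a1, Col1a2, Col3a1, Col5a2, Col5a3 and Col11a1. Of all tested genes 1.36% were called higher, and limma-voom called 3 fibrillar genes. Col1a2, Col3a1, Col5a3 and Col11a1 stayed under 10 in every KPC line and passed the filter only through the KPCAf/f lines. The count and the median are therefore partly set by the filter. The log2 fold changes of the 6 called fibrillar genes ran from 5.41 for Col5a3 to 10.50 for Col1a2. Col12a1 and Col6a3 fall in that range and Col8a1 does not. The difference between the fibrillar and non-fibrillar genes was not tested.

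Collagen VI receptors and partners rose in part, with 5 of 15 tested genes higher and 0 lower (median 1.90). Of all tested genes limma called 1.36% higher. In this list edgeR called 2 and DESeq2 called 7. Cspg4, the NG2 proteoglycan that binds collagen VI, rose to 201 ± 73.0 normalized counts in KPCAf/f, against 10.9 ± 18.8 in KPC (limma adjusted p = 0.00991). Fn1, which encodes fibronectin, rose to 37427 ± 19286 in KPCAf/f, against 4339 ± 1882 in KPC (adjusted p = 0.00731), and the proteoglycan gene Bgn to 12396 ± 8784 in KPCAf/f, against 1618 ± 3601 in KPC, where 1 KPC line had 8061 (adjusted p = 0.0398). Itga11, a collagen-binding integrin chain, and Mfap5, a microfibril protein that is also on the fibroblast marker list, were the other 2 (adjusted p = 0.00860 and 0.00170). Itga11 and Mfap5 reached at most 8.52 and 1.32 in any KPC line. Only the KPCAf/f lines brought these 2 genes past the filter, so that they had to differ. Cspg4, with a KPC median of 3.35, passed it mainly through the KPCAf/f lines. The count and the median of this list are therefore partly set by the filter. The receptor genes Antxr1 and Antxr2 had log2 differences of 0.02 and -0.55 (adjusted p = 0.990 and 0.485). Without A1620 and A1693 the number of calls in this list was 2.

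Of the 8 listed partners of the fibril-associated collagens only 3 reached the filter, and Comp stayed under 10 in every line. Of these 3 tested genes 2 rose (median 4.19), where 1.36% of all tested genes were called higher. With limma-voom 1 was called, as in the test without A1620 and A1693. Tnc, which encodes tenascin C, rose to 420 ± 364 normalized counts in KPCAf/f, against 11.6 ± 10.2 in KPC (limma adjusted p = 0.0134), and Thbs1, which encodes thrombospondin 1, to 18084 ± 15577 in KPCAf/f, against 985 ± 804 in KPC (adjusted p = 0.0104). With a KPC median of 6.85, Tnc passed the filter mainly through the KPCAf/f lines. Tnxb, which encodes tenascin X, a binding partner of collagens XII and XIV, was at 235 ± 341 in KPCAf/f and 69.5 ± 68.5 in KPC (adjusted p = 0.953).

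None of the 12 tested hemidesmosome and anchoring fibril partners of Col17a1 and Col7a1 passed by limma, edgeR, DESeq2 or limma-voom (2 had an unadjusted p under 0.05; median -0.43). Lamb3, a chain of the laminin that binds collagen VII, was at 605 ± 791 normalized counts in KPCAf/f and at 2924 ± 2605 in KPC (limma adjusted p = 0.289). Of 28 tested genes of collagen folding and export, 0 passed by limma, edgeR or limma-voom and 2 were higher by DESeq2. In that list 9 had an unadjusted p under 0.05, against the 14.6% of all tested genes, and the median was 0.45. Over all 13089 tested genes limma called 1.75% in either direction and DESeq2 called 521 higher. Counts of 0 in lists of 12 and 28 genes therefore do not set these lists apart from other genes. Serpinh1, the collagen chaperone HSP47, was at 8830 ± 4318 in KPCAf/f and 3210 ± 1311 in KPC (adjusted p = 0.126). The prolyl hydroxylase family gene P3h3 was at 278 ± 307 in KPCAf/f and 41.5 ± 12.7 in KPC (adjusted p = 0.0964), and the lysyl hydroxylase gene Plod2 at 837 ± 223 in KPCAf/f and 328 ± 308 in KPC (adjusted p = 0.141). Sparc was at 12261 ± 5891 in KPCAf/f and 2408 ± 3001 in KPC (adjusted p = 0.128). Pcolce2 went the other way, at 299 ± 244 in KPCAf/f and 866 ± 531 in KPC (adjusted p = 0.183). Of the 28 genes 19 had a positive and 9 a negative log2 difference. For Serpinh1 and P3h3 every KPCAf/f line lay above every KPC line, as for 2.84% of all tested genes. For P4hb, which encodes a subunit of prolyl 4-hydroxylase, every KPCAf/f line (at most 19895) lay below every KPC line (at least 20069), as for 1.69% of all tested genes. P4hb did not pass either (limma adjusted p = 0.384).

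Some markers of fibroblasts rose as well. Of 13 fibroblast markers 6 were tested, of which 4 rose and 0 fell (limma-voom called 2), while Fap and Pi16 stayed under 10 in every line. By limma 1.36% of all tested genes were called higher and 0.39% lower. Among the 4, Pdgfrb, Mfap5 and Ogn were at 1.32 or less in every KPC line. Only the KPCAf/f lines brought these genes past the filter, so that they had to differ. The summed level of the list was 2744 to 11646 normalized counts in KPCAf/f and 50.5 to 894 in KPC. Pdgfra was at 198 to 3898 in KPCAf/f and 2.65 to 54.8 in KPC, and Dcn, a proteoglycan of connective tissue, at 2.46 in A1809 and 87.7 to 182 in the 4 remaining KPCAf/f lines, against 0 to 1.03 in KPC. A1809, which had the lowest Pdgfra and Dcn of the KPCAf/f lines and the highest Epcam (6720), also had the most Col6a3 and Col7a1. It had the least Col6a1 (208), Col6a2 (65.5), Col14a1 (1.64) and Col16a1 (219) of the KPCAf/f lines. Epithelial markers summed to 6204 to 136020 in KPCAf/f and 181770 to 373650 in KPC, with 0 of 13 called by limma, edgeR or limma-voom, 2 lower by DESeq2 and 6 with an unadjusted limma p under 0.05 (14.6% over all tested genes). Pericyte and smooth muscle markers summed to 273 to 3514 in KPCAf/f and 4.47 to 71.5 in KPC. Of the 8 listed genes 2 were tested and 1 was called higher (0 by limma-voom). This was Acta2, at 96.1 to 2987 in KPCAf/f and 0 to 58.3 in KPC, while Rgs5, Kcnj8 and Abcc9 stayed under 10 in every line. Endothelial markers summed to 12.6 to 677 in KPCAf/f and 13.4 to 440 in KPC, with the defining marker Pecam1 at 0 to 6.75 in KPCAf/f and 0 to 5.68 in KPC. Leukocyte markers summed to 89.0 to 293 in KPCAf/f and 45.8 to 121 in KPC, with Ptprc at 0.843 to 9.82 in KPCAf/f and 2.24 to 11.3 in KPC. Basal squamous markers, relevant to Col17a1 and Col7a1, summed to 5.62 to 40.5 in KPCAf/f and 4.12 to 1714 in KPC and had 0 tested genes. The 1714 was that of A1620 alone, and the other KPC lines were at 54.9 or less. Trp63 was at 0 to 24.6 in KPCAf/f and 0 to 2.06 in KPC. Neural and Schwann cell markers summed to 14.1 to 62.95 in KPCAf/f and 10.6 to 45.8 in KPC, and pancreas markers to 952 to 2998 in KPCAf/f and 1800 to 2928 in KPC. The part of these markers' cell types in the collagen values was not tested.

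The genes with the most similar pattern were sought for each of the 8 tested collagens by Pearson r of log2 values over the 10 lines, as a description without a test, since all values of a line share its library. For Col6a1 they were Fzd7 (r = 0.95), Ispd (0.90) and Dnm1 (0.89), and for Col6a2 Kazald1 (0.93), Traf5 (0.90) and Auh (0.89), each about as high after subtraction of the genotype means (0.88 to 0.95). For Col7a1 they were Pced1a (0.96), Mapk15 (0.93) and Fbxo2 (0.91), and for Col18a1 Foxq1, Ifi27l2b and Acsm3 (each 0.97), again with genotype-centred values of 0.91 to 0.97. Nearest to Col16a1 were Adamts5 (0.97), Sparc (0.96) and Nxpe4 (0.94), with centred values of 0.88 to 0.93. Genes nearest to Col12a1 were Igfbp6, Ulk4 and Cald1 (each 0.98), with centred values of 0.81 to 0.84, and for Col8a1 Wbscr27 (0.96), Csf1 (0.96) and Sertad4 (0.95), with centred values of 0.83 to 0.87. For Col6a3 they were Ntn1 (0.92), Sema7a (0.92) and Wdsub1 (0.91), where the centred values of 0.59 to 0.68 were the lowest among the 8 collagens.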

How the data were processed

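The table holds, for 10 libraries, a signal deposited by the authors, namely reads counted per gene and scaled by the size factors of DESeq2. Per the labels' protocols, stranded mRNA libraries were made from cultured lines. The submitters' processing notes list, for reads, bcl2fastq 1.8.4 and Trimmomatic 0.36, for alignment STAR 2.5.2b, for counting featureCounts from Subread 1.5.0p3, and for scaling R 3.3.2 with DESeq2 1.14.1. Both GRCm38.p5 and mm9 appear there as builds, with no role. Which annotation was counted, and whether by strand, is not given in the sources used here. GENCODE M21 (GRCm38) supplied positions and lengths and matched 95.3% of 49568 symbols. Among the 10 genes only Col7a1 shares exon bases with another annotated gene (36 bases with Mir711).

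Whole reads were recovered within 0.001 read for 100.0% of values in every library. Genotypes were compared on log2(normalized count + 1) with limma 3.58.1 (R 4.3.3, prior variance trended on mean level), over genes with at least 10 normalized counts in at least 5 lines. This scale understates changes of low genes. Chain ratios were compared with exact permutation tests (scipy 1.17.1). edgeR 4.0.16, DESeq2 1.42.0 and limma-voom were run on the recovered reads, and the fits were tested on simulated data with known changes. Other settings were 2 pseudocounts, 2 filters, quantile and TMM scaling, array weights, a loess correction for transcript length, and lines left out. Leaving out A1620 with A1693 in the ratio tests was added after seeing the data. The members, lists and settings were chosen with earlier results of these data known. Named genes are the 10 collagens, Arid1a, up to 8 called genes and the 5 smallest p-values of each collagen or partner list, a fixed set of defining markers, and the 3 nearest genes of each tested collagen (symbols of clones, predicted genes and pseudogenes were passed over). Col4a1, Col4a2, the alternative collagen VI chains, Antxr1, Antxr2, P4hb, Comp and the Y-linked genes fall outside this rule. So do Acta2, Rgs5, Kcnj8, Abcc9, Fap, Pi16, Pdgfrb and Ogn of the marker lists. All of these were named after their values were seen. Figures were drawn with matplotlib 3.10.9.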

Additional observations from a re-analysis of the deposited data

How the results depend on the processing

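Over all settings tried, Col6a1, Col6a2, Col7a1 and Col18a1 kept their direction and did not pass, and Col12a1, Col6a3, Col8a1 and Col16a1 kept their direction. Col12a1 kept its call in 21 of 22 other settings, Col6a3 in 19 and Col8a1 in 11, and Col16a1 gained one in 3. The number of the 8 collagens called higher was 2 to 3 with any 1 line left out 0 with limma-voom and 4 with array weights and with DESeq2, and 0 were lower in any setting. Genes called over all tested numbered 178 higher and 51 lower. They were 109 and 22 where the mean had to be at least 100 (fewer genes tested), 403 and 183 with array weights, 521 and 210 with DESeq2, 76 and 29 with limma-voom and 145 and 27 with edgeR. With any 1 line left out 122 to 227 were higher and 24 to 91 lower, the 91 without A1809. The cause of these shifts was not tested. The genotype difference in the log2 ratio of Col6a2 to Col6a1, which did not pass, ran from -0.349 to 0.088 with any 1 line left out and was 0.17 without A1620 and A1693. The ratio differences of Col6a3 were 2.70 over Col6a1 and 2.76 over Col6a2 with a pseudocount of 10, and 4.03 to 6.01 and 3.98 to 6.12 with any 1 line left out (exact permutation p adjusted over 3 ratios of 0.0238, set by the smallest p that 126 splits allow). Across all settings the median log2 difference of all tested genes stayed between -0.03 and 0.05. Col6a3 rests on 5 reads in the KPC libraries and Col14a1 and Col17a1 on 4 and 7, which limits any statement on their size of change. No paired analysis was possible because the labels number no replicates that the genotypes share.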
